A study of Mus musculus with 6 samples.

Results

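Genes that carry, make or break down the amino acid arginine were followed in mouse tumors grown at 2 sites. The set held 10 listed genes: Arg1, Arg2, Nos2, Nos3, Ass1, Asl, Slc7a1, Slc7a2, Odc1 and Oat. A gene was kept when a transcript cluster of the array was paired with it alone, and where there were several, the cluster was chosen by its mean over the 6 arrays, taking the brightest. This left 9 of the 10 genes, out of 19938 genes measured in all. Ass1 was not analysed here, because its clusters are shared with another gene. The tumors were grown from Renca, a line of kidney cancer cells of BALB/c origin, and hosts were BALB/c mice that still have their immune system. Intrakidney tumors came from cells injected into the outer part of the kidney and subcutaneous tumors from cells injected under the skin, with no treatment named for either group. Each group had 3 tumors from 3 mice, excised on day 12, and the labels give no age. The values were log2 intensities from whole-transcript gene arrays, 1 array per tumor, on which a step of 1 is a doubling of signal.

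Arginine is at a branch point of metabolism. Arginases split it into ornithine and urea, nitric oxide synthases turn it into nitric oxide and citrulline, and citrulline can be turned back into arginine by the enzymes encoded by Ass1 and Asl. Arg1 marks macrophages under type 2 cytokines and many myeloid cells of tumors, and it is also one of the main urea cycle genes of the liver. Nos2 is the inducible synthase of macrophages under interferon and bacterial signals, and the competition of arginase and this synthase for arginine is a textbook axis of macrophage states. In the kidney the proximal tubule is a main site of arginine synthesis. Arrays of whole tumors mix all these cells, so that fewer cells of a type and less RNA per cell cannot be told apart.

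Intrakidney tumor 3 stood apart from the other 5 tumors. Alb, the albumin gene of hepatocytes, measured 5.88, 7.20 and 11.83 in intrakidney tumors 1, 2 and 3, against 5.50 to 5.60 in the subcutaneous tumors. The mean over 13 hepatocyte markers was 5.71, 6.05 and 8.70 in the intrakidney tumors, against 5.67 to 5.87 in the subcutaneous tumors, and 13 of the 13 markers had a higher intrakidney mean. Their summed linear signal was 798 to 9696 in intrakidney tumors, against 789 to 908 in subcutaneous tumors. The mean over 16 proximal tubule markers was 6.06, 6.67 and 7.28 in intrakidney tumors 1, 2 and 3, against a subcutaneous range of 6.15 to 6.32, with 15 of 16 higher in the intrakidney mean. Their summed linear signal was 1391 to 2823 in intrakidney tumors, against 1618 to 1801 in subcutaneous tumors. The exception was Aqp1, a water channel gene of tubule and of small vessels, at 8.60, 7.87 and 7.94 in the intrakidney tumors, against a subcutaneous range of 9.07 to 9.29. Array values after this normalization do not reach 0, so no marker could be called absent. Over both lists the mean was highest in intrakidney tumor 3, lower in intrakidney tumor 2, and not above the subcutaneous range in intrakidney tumor 1. Single markers such as Alb and Pck1 (6.99 in intrakidney tumor 1, against 6.75 to 6.91 in subcutaneous tumors) did lie above that range there.

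Arg1 (transcript cluster 10368343), the cytosolic arginase, had the largest difference of the 9 genes. It measured 10.32, 8.99 and 10.36 in intrakidney tumors 1, 2 and 3, against 7.92, 7.82 and 7.91 in subcutaneous tumors 1, 2 and 3. Every intrakidney tumor lay above every subcutaneous tumor, with a gap of 1.07 between the groups, and intrakidney tumor 2 lay well below the other two. The mean was 9.89 ± 0.78 in intrakidney tumors and 7.88 ± 0.05 in subcutaneous tumors (SD, n = 3 each), a 4.02-fold difference. Of all genes, 6 had a larger increase, and 0.391% had a larger spread among the intrakidney tumors.

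The difference of Arg1 was 2.01 on the log2 scale, with a 95% interval of 1.23 to 2.79. In limma's fit over all genes Arg1 had an unadjusted p of 0.000408 and an adjusted p of 0.0947 (Benjamini-Hochberg), which missed the threshold of 0.05. The spread was 14.2 times larger among intrakidney than among subcutaneous tumors, and the fit assumes 1 common spread. Without intrakidney tumor 2 the difference was 2.46 and the limma adjusted p was 0.000390. Leaving out any other single array gave a limma adjusted p of 0.162 to 0.432, which missed the threshold. The two-sided exact permutation p was 0.1, the smallest that 3 arrays against 3 allow. Arg1 was chosen for description with its difference already known, so these p-values are no independent support.

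Arg1 is also a liver gene, and the hepatocyte levels are therefore set beside it. In intrakidney tumor 1 Arg1 was at 10.32 while the hepatocyte mean was 5.71, within the subcutaneous range. Alb alone, at 5.88 in that tumor, lay above its subcutaneous range of 5.50 to 5.60. In intrakidney tumor 3 Arg1 was at 10.36 with a hepatocyte mean of 8.70. Without intrakidney tumors 2 and 3 the difference was 2.43, a value from 1 intrakidney array that says nothing of the spread among such tumors. When only intrakidney tumor 3 was left out, it was 1.77 (limma adjusted p = 0.223). The part of liver tissue in the Arg1 value was not tested.

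**Figure D1:**
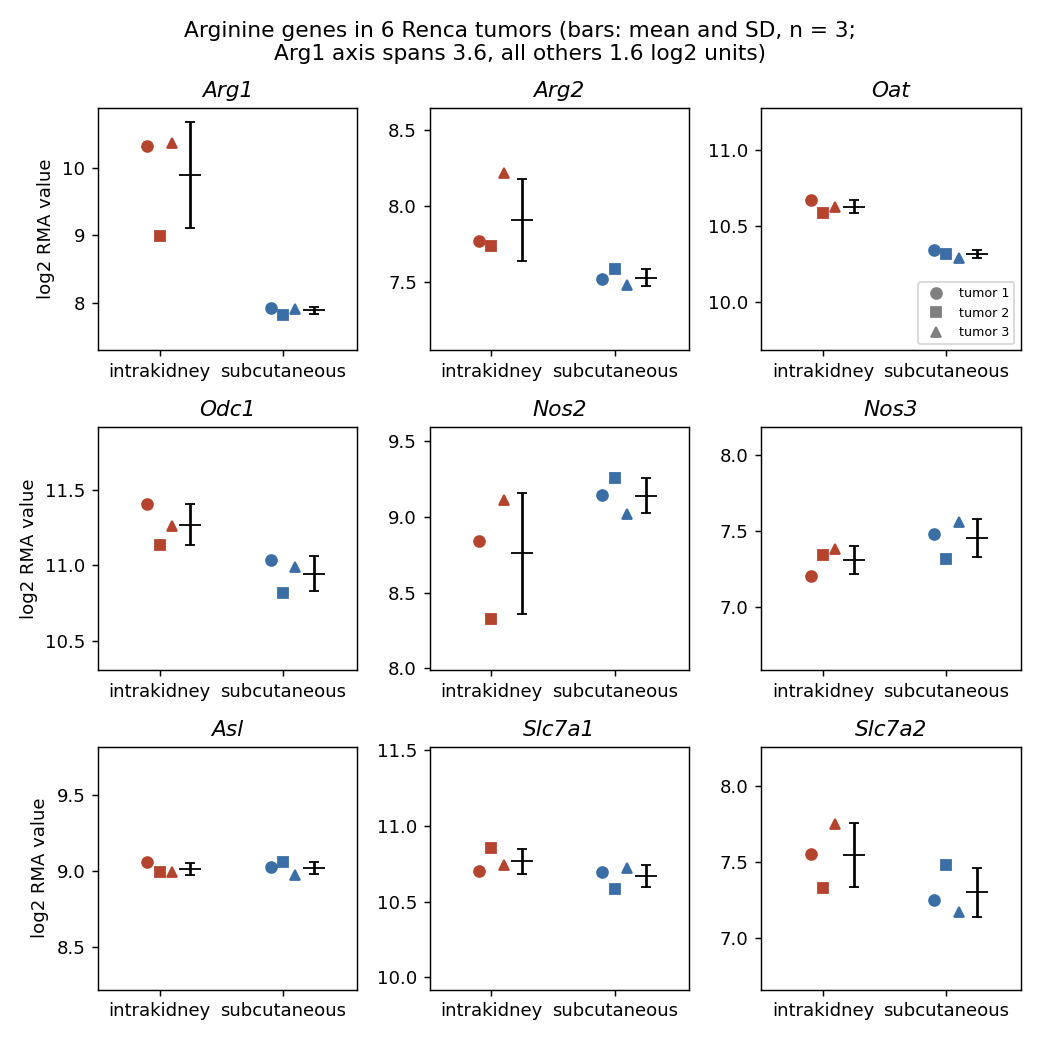
Log2 RMA value (vertical axes) of the 9 measured arginine genes in each intrakidney (red) and subcutaneous (blue) tumor, with symbols for the tumor number and bars for the group mean and SD (n = 3 each). The Arg1 panel spans a wider axis than the others. Arg1, Arg2, Odc1 and Oat show no overlap between the groups, and Arg1 and Nos2 are both lowest among the intrakidney tumors in tumor 2.

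The other arginase gene, Arg2, and the ornithine enzyme genes Oat and Odc1 also had a higher intrakidney mean, by far smaller steps, and missed the adjusted threshold. Arg2, the mitochondrial arginase found in kidney and in many other tissues, measured 7.77, 7.74 and 8.22 in the intrakidney tumors, against 7.52, 7.59 and 7.48 in the subcutaneous tumors. The groups did not overlap. Intrakidney tumor 3, with the highest liver and tubule marker means, was the highest, and intrakidney tumor 2, in which those means were also above the subcutaneous range, was the lowest intrakidney tumor. The difference was 0.38 ± 0.13 on the log2 scale (SE, limma adjusted p = 0.465). It was 0.22 without intrakidney tumor 3, which differs from the value over all arrays by more than 1.5 times. The part of tubule or liver tissue in the Arg2 value was not tested.

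Oat encodes ornithine aminotransferase, the mitochondrial enzyme that leads from ornithine toward proline and glutamate. It measured 10.67, 10.59 and 10.62 in the intrakidney tumors, against 10.34, 10.32 and 10.29 in the subcutaneous tumors. The 3 intrakidney values lay within 0.085 of one another and 0.25 above the highest subcutaneous value. Although its fold difference was only 1.24, Oat had the second lowest p of the 9 genes, with a difference of 0.31 ± 0.07 on the log2 scale (SE, unadjusted p = 0.00173, limma adjusted p = 0.186). Intrakidney tumor 1, whose tubule and hepatocyte marker means were not above the subcutaneous range, gave the highest Oat value. The part of tubule or liver tissue in the Oat value was not tested.

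Odc1 encodes ornithine decarboxylase, the first enzyme of polyamine synthesis. It measured 11.41, 11.13 and 11.26 in the intrakidney tumors and 11.03, 10.82 and 10.99 in the subcutaneous tumors, again without overlap, with intrakidney tumor 1 highest. The difference was 0.32 ± 0.10 on the log2 scale (SE, limma adjusted p = 0.407). Odc1 has another cluster on the array, which measured 10.58, 10.26 and 10.31 in the intrakidney tumors and 10.15, 10.06 and 10.08 in the subcutaneous tumors, a difference of 0.29 in the same direction. The clusters share most of their transcript accessions, so near-identical copies in the genome cannot be told apart here.

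Nos2, Nos3 and Asl were the 3 measured genes with a lower mean in intrakidney tumors, and Nos2, the inducible nitric oxide synthase, differed most. It measured 8.84, 8.33 and 9.11 in intrakidney tumors 1, 2 and 3, against 9.14, 9.25 and 9.02 in the subcutaneous tumors. The groups overlapped, because intrakidney tumor 3 lay above subcutaneous tumor 3. Intrakidney tumors averaged 8.76 ± 0.40 and subcutaneous tumors 9.14 ± 0.12 (SD, n = 3 each). The difference was -0.38 on the log2 scale, with a 95% interval of -0.81 to 0.05 (limma adjusted p = 0.663). It rested largely on intrakidney tumor 2, without which it was -0.16, and it was -0.55 without intrakidney tumor 3.

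Within each tumor Arg1 was set against Nos2 as a difference of log2 values, which follows unequal change and not the level of one gene against the other. Arg1 minus Nos2 was 1.48, 0.67 and 1.25 in the intrakidney tumors, against -1.22, -1.43 and -1.11 in the subcutaneous tumors. The shift between group means was 2.39 on the log2 scale, larger than that of Arg1 alone. Its SD was 0.42 among intrakidney tumors, against 0.78 for Arg1 itself, and 0.16 among subcutaneous tumors, against 0.05 for Arg1. Intrakidney tumor 2 was the lowest intrakidney tumor in both genes. This measure was chosen with the values of both genes known and is given without a test.

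Nos3, the synthase of endothelium, measured 7.20, 7.34 and 7.38 in the intrakidney tumors and 7.48, 7.31 and 7.56 in the subcutaneous tumors, and the groups overlapped. The difference was -0.14 on the log2 scale, with a 95% interval of -0.35 to 0.07 (limma adjusted p = 0.757). It was -0.09 without intrakidney tumor 1 and likewise without subcutaneous tumor 3. Most endothelial markers went the other way, 9 of 12 with a higher intrakidney mean. Their mean level over the list was 8.34 to 8.40 in intrakidney and 8.08 to 8.23 in subcutaneous tumors. Among them Emcn, a sialomucin gene of small vessels, rose by 0.72 in log2 units (limma adjusted p = 0.0460). The 3 lower markers were Vwf at a difference of -0.11, Cldn5 at -0.05 and Esam at -0.01, each with overlapping groups. Pecam1 differed by 0.009, also with overlapping groups. The part of vessel content in the Nos3 value was not tested.

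Of the enzymes that rebuild arginine from citrulline, only Asl, which encodes argininosuccinate lyase, had a value. It measured 9.06, 8.996 and 8.992 in the intrakidney tumors and 9.03, 9.06 and 8.98 in the subcutaneous tumors. The difference was -0.004 with a 95% interval of -0.16 to 0.15 on the log2 scale (limma adjusted p = 0.996). Its sign changed under several settings.

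The 2 arginine transporters overlapped between the groups. Slc7a1, the widely expressed cationic amino acid carrier, measured 10.70, 10.86 and 10.74 in the intrakidney tumors and 10.70, 10.58 and 10.72 in the subcutaneous tumors. Its difference was 0.10 on the log2 scale, with a 95% interval of -0.08 to 0.28 (limma adjusted p = 0.824), and it was 0.05 when intrakidney tumor 2 was left out and 0.06 when subcutaneous tumor 2 was. Slc7a2, the carrier that supplies arginine in activated macrophages and in liver, measured 7.55, 7.33 and 7.75 in the intrakidney tumors and 7.25, 7.48 and 7.17 in the subcutaneous tumors. Its difference was 0.24, with a 95% interval of -0.05 to 0.54 (limma adjusted p = 0.692), and it was 0.14 without intrakidney tumor 3. Like Arg1 and Nos2, Slc7a2 was lowest among the intrakidney tumors in tumor 2 and highest in tumor 3.

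**Figure D2:**
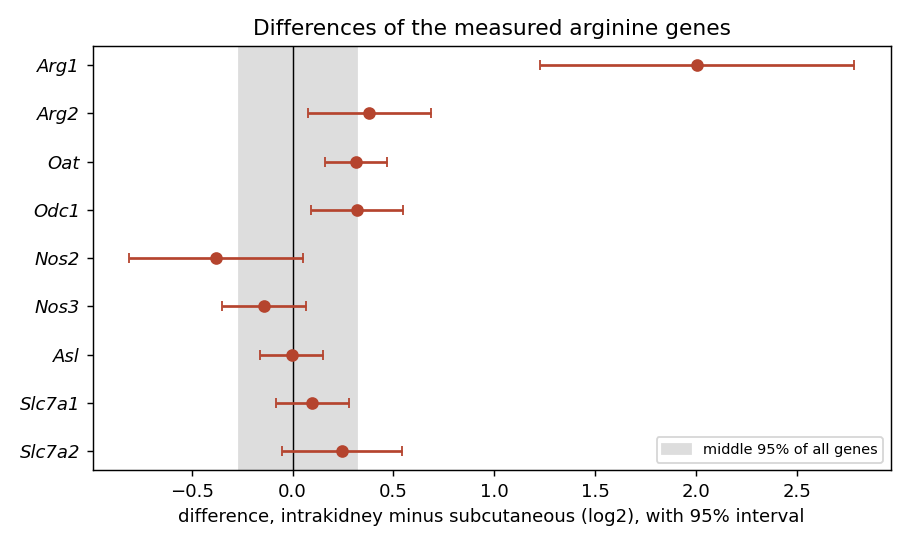
Difference of each measured arginine gene, intrakidney minus subcutaneous, on the log2 scale (horizontal axis), with its 95% interval from the fit over all genes (n = 3 tumors per group). The grey band holds the middle 95% of the differences of all genes, from -0.27 to 0.32. Arg1 at 2.01 lies far beyond the band, Arg2 above it, Odc1 at its upper edge and Nos2 below it, while the interval of Nos2 reaches 0.

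Over the set, no member (0 of 9) reached an adjusted p of 0.05 with limma, where 0.231% of all genes did. At an unadjusted p of 0.05, 4 of the 9 passed (Arg1, Oat, Odc1 and Arg2), all higher in intrakidney tumors, where 8.43% of all genes passed and 4.72% passed higher. The same 4 genes had groups that did not overlap, a state found in 14.9% of all genes and, on the higher side, in 8.41%. The median difference of the 9 genes was 0.24, against -0.006 for all genes. The genes were listed with earlier results of these data known, so the share is a description and carries no test.

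The intrakidney tumors also differed among themselves. Of the 9 genes, 6 were lowest in intrakidney tumor 2 (Arg1, Arg2, Nos2, Slc7a2, Odc1 and Oat), where 27.8% of all genes had their lowest intrakidney value. In intrakidney tumor 3, 5 genes were highest (Arg1, Arg2, Nos2, Nos3 and Slc7a2), where 24.2% of all genes were. For Oat this order spans 0.085, and for Arg1 it spans 1.37 on the log2 scale. Among subcutaneous tumors the range was at most 0.31 for any of the 9 genes.

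**Figure D3:**
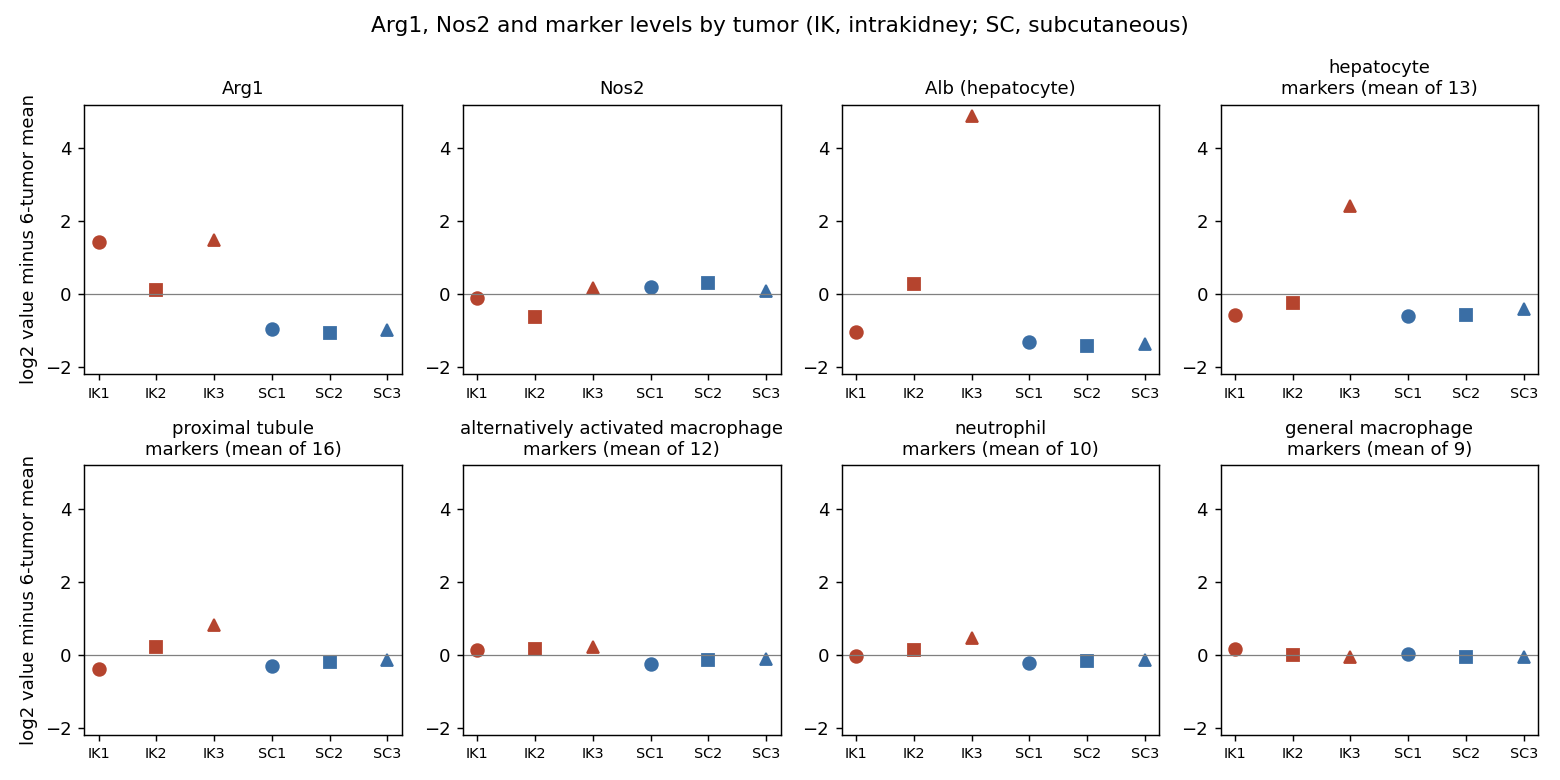
Log2 value minus the gene's or list's own mean over the 6 tumors (vertical axes, same scale) for Arg1, Nos2, Alb and the means of 5 marker lists, in intrakidney (IK1 to IK3, red) and subcutaneous tumors (SC1 to SC3, blue). Arg1 is high in IK1 and IK3, whereas Alb, hepatocyte and proximal tubule markers are highest in IK3 and low in IK1.

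Myeloid markers were set beside Arg1 and Nos2, since macrophages and neutrophil-like cells are known sources of both. Of 12 markers of alternatively activated macrophages, 10 had a higher intrakidney mean and 2 rose past the threshold, where 0.231% of all genes passed it in either direction. These were Ccl24, a chemokine gene, by 0.53 and Folr2, a gene for folate uptake, by 0.58 in log2 units (limma adjusted p = 0.0460 each). The 2 lower markers were Ccl22, another chemokine gene, at a difference of -0.41, and Pdcd1lg2 at -0.05, both with overlapping groups. The mean over the list was 7.88, 7.89 and 7.96 in intrakidney tumors 1, 2 and 3, against 7.50 to 7.63 in subcutaneous tumors. Its summed linear signal was 5988 to 6265 in intrakidney tumors, against 4621 to 4934 in subcutaneous tumors. The mean of this list was as high in intrakidney tumor 2 as in tumor 1, unlike Arg1. Single markers differed in their order. Cd163, with the largest difference of the list at 1.04 (limma adjusted p = 0.0744), measured 7.80, 7.59 and 8.28 in intrakidney tumors 1, 2 and 3. Like Arg1, it was lowest in tumor 2 and highest in tumor 3. Clec10a, at 8.21, 7.91 and 7.75, was lowest in tumor 3.

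General macrophage markers averaged 10.39, 10.23 and 10.16 in the intrakidney tumors, against a subcutaneous range of 10.18 to 10.25, with 5 of 9 higher and a summed linear signal of 20540 to 22987 in intrakidney and 20268 to 21323 in subcutaneous tumors. The groups overlapped in that mean. Neutrophil markers averaged 6.07, 6.24 and 6.55 in the intrakidney tumors, against a subcutaneous range of 5.87 to 5.97, with 8 of 10 higher and a summed linear signal of 826 to 1257 in intrakidney and 705 to 768 in subcutaneous tumors. None of these lists had its lowest intrakidney level in tumor 2, where Arg1 and Nos2 were lowest. The part of each cell type in the Arg1 and Nos2 values was not tested.

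Upstream signals of Arg1 and Nos2 were read from lists of genes known to induce each gene or to carry such a signal. Of 12 genes for Arg1, 0 passed the adjusted threshold with limma and 2 (16.7%) passed at an unadjusted p of 0.05, where 8.43% of all genes did. Csf2, which encodes the growth factor GM-CSF, measured 7.55, 7.49 and 7.74 in the intrakidney tumors, against 6.64, 6.84 and 7.02 in the subcutaneous tumors. This 1.69-fold difference did not overlap between the groups but missed the threshold (limma adjusted p = 0.0724). Il4ra, the interleukin 4 receptor gene, differed by 0.19 (limma adjusted p = 0.510). Of the other cytokine genes of the list, Il4 differed by -0.06, Il13 by -0.01, Il10 by -0.09 and Tgfb1 by -0.003 on the log2 scale, each with overlapping groups. Il10 and Il4 were dim, with means at the 10.2 and 20.5 percentile of all genes, so little can be read from their small differences. The median of the list was -0.007, against -0.006 for all genes.

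Of 9 measured genes known to induce Nos2 or to carry such a signal, 0 passed the adjusted threshold with limma and 2 (22.2%) passed at an unadjusted p of 0.05, again beside 8.43% of all genes. These were Cd14, the lipopolysaccharide co-receptor gene, at a difference of 0.44 (limma adjusted p = 0.0744), and Tnf, the inflammatory cytokine gene, at 0.39 (limma adjusted p = 0.297). Tnf measured 8.32, 8.38 and 8.46 in the intrakidney tumors and 7.80, 8.09 and 8.10 in the subcutaneous tumors. Both had a higher mean in the intrakidney tumors, in which the Nos2 mean was lower. Il1b, another inflammatory cytokine gene, differed by 0.30 with overlapping groups. Ifng, the interferon gamma gene, measured 6.15, 6.20 and 6.17 in the intrakidney tumors and 6.23, 6.14 and 6.34 in the subcutaneous tumors, a difference of -0.06. Its mean was also low, at the 28.4 percentile of all genes. Ifngr1, the receptor gene of interferon gamma, differed by -0.11.

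The wider pathway was followed with 42 further genes in 4 lists, of which 35 were measured. None passed the adjusted threshold with limma, 7 passed at an unadjusted p of 0.05 (5 higher and 2 lower), and the median difference was 0.04. The 7 genes were 20.0% of those measured, beside 8.43% of all genes, and groups did not overlap for 22.9%, beside 14.9% of all genes. Polyamine genes held the pathway gene with the lowest p. Srm, which encodes spermidine synthase, the enzyme after Odc1, measured 10.72, 10.89 and 10.84 in the intrakidney tumors and 10.27, 10.36 and 10.43 in the subcutaneous tumors. The group means were 0.46 apart on the log2 scale, and the groups did not overlap (limma adjusted p = 0.102). Sat1, which encodes the enzyme that acetylates polyamines for export, differed by -0.26, with 12.24, 12.02 and 12.19 in the intrakidney tumors against 12.43, 12.50 and 12.30 in the subcutaneous tumors (limma adjusted p = 0.465). Dohh, whose enzyme completes the spermidine-derived hypusine of a translation factor, differed by 0.21, and Azin2, an antizyme inhibitor gene, by -0.13. Of the 8 measured polyamine genes 4 were higher and 4 lower, with a median of 0.02.

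Among other transport and urea cycle genes, 6 of 10 had a higher intrakidney mean and 0 passed the adjusted threshold. At an unadjusted p of 0.05, 1 of the 10 passed, where 8.43% of all genes did. Groups did not overlap for 1 of the 10, beside 14.9% of all genes. Cps1, the first urea cycle enzyme gene of the liver, measured 5.68, 6.19 and 8.31 in the intrakidney tumors and 5.39, 5.74 and 6.11 in the subcutaneous tumors. Otc, the gene of the next urea cycle enzyme, measured 4.16, 4.37 and 5.12 in the intrakidney tumors and 4.19, 4.13 and 4.35 in the subcutaneous tumors. Both were highest in intrakidney tumor 3 and lay within the subcutaneous range in intrakidney tumor 1, in which Arg1 was high. Slc25a2, a mitochondrial ornithine carrier gene, differed by -0.30 (limma adjusted p = 0.240) and Slc7a3, another cationic amino acid carrier gene, by -0.18.

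Genes of proline, creatine and agmatine synthesis gave a median difference of -0.01 over 6 genes, with 0 at an unadjusted p of 0.05. Aldh4a1, a mitochondrial enzyme gene of proline breakdown, differed by 0.22. Gatm, the first enzyme gene of creatine synthesis and an abundant tubule transcript, measured 10.83, 10.38 and 10.26 in the intrakidney tumors, against a subcutaneous range of 10.66 to 10.68. Prodh, the proline dehydrogenase gene, differed by 0.10 and Aldh18a1, whose enzyme starts proline synthesis from glutamate, by -0.07.

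Genes of the nitric oxide cofactor, control and response gave a median of 0.04 over 11 genes, with 0 past the adjusted threshold and 3 at an unadjusted p of 0.05, all higher (27.3%, beside 4.72% of all genes on the higher side). These were Gucy1b1 and Gucy1a1, the subunit genes of the guanylate cyclase that senses nitric oxide, at 0.31 and 0.23, and Spr, which encodes sepiapterin reductase of cofactor synthesis, at 0.23 (limma adjusted p = 0.379, 0.491 and 0.383). Nos1, the neuronal synthase gene, differed by 0.27 with overlapping groups. Gch1, whose enzyme begins cofactor synthesis and is induced with Nos2 in macrophages, differed by 0.002.

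**Figure D4:**
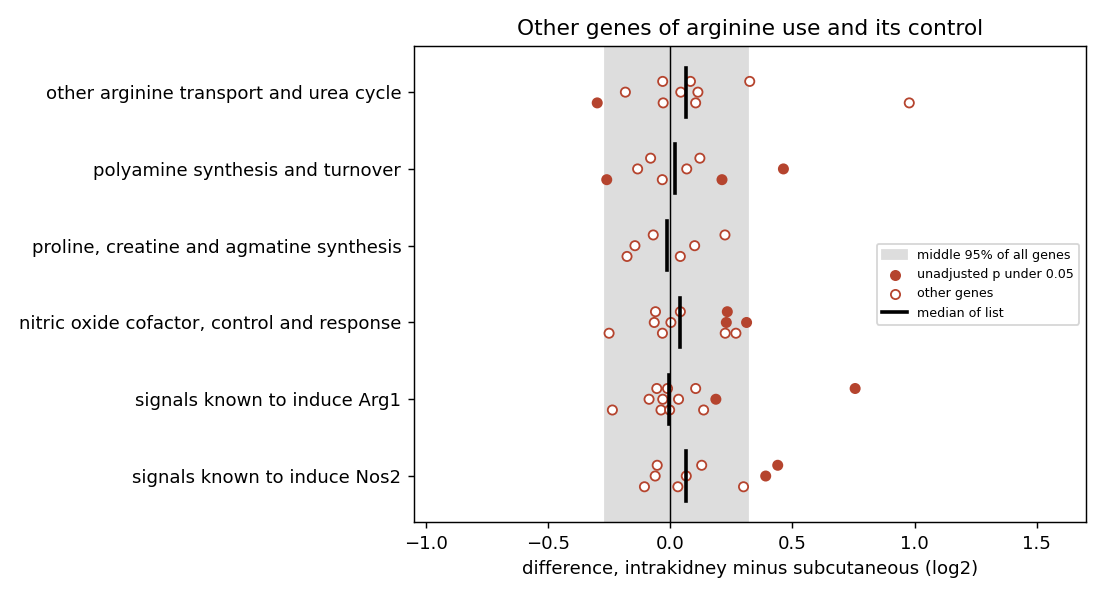
Difference of each measured gene, intrakidney minus subcutaneous, on the log2 scale (horizontal axis), for 6 lists of genes of arginine use and of its control. Filled points passed an unadjusted p of 0.05, open points did not, black bars are list medians, and the grey band holds the middle 95% of all genes. The medians lie between -0.01 and 0.07, and Cps1 at 0.98 and Csf2 at 0.76 are the points farthest to the right.

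The genes whose pattern over the 6 tumors was nearest to that of Arg1 were found by the root mean square difference between values centred on each gene's own mean. Arg1 itself deviated from its mean by 1.10 on this scale. The nearest was Serpinb2, a plasminogen activator inhibitor gene of monocytes and macrophages, at a distance of 0.29. It measured 8.22, 6.58 and 7.48 in the intrakidney tumors and 5.46, 5.82 and 5.71 in the subcutaneous tumors. Next were Prg4, which encodes the joint and serosal lubricant lubricin, at 0.34, the alarmin gene Il33 at 0.37, the acute phase gene Saa3 at 0.40 and the fatty acid carrier gene Fabp4 at 0.42. Serpinb2, Prg4, Il33, Saa3 and Fabp4 all had their lowest intrakidney value in tumor 2. They were chosen by nearness to Arg1, itself lowest there, so this shared order is no independent support. Of the 5 genes, only Fabp4 rose past the threshold (limma adjusted p = 0.00637).

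Around Nos2, which deviated from its mean by 0.31, the nearest gene was Tnfrsf23, a decoy receptor gene for the death ligand TRAIL, at a distance of 0.08. It measured 10.43, 10.12 and 10.92 in the intrakidney tumors and 10.88, 10.97 and 10.68 in the subcutaneous tumors. Jade3, Itm2a, Pdgfra (a growth factor receptor gene of fibroblasts) and Arrb1 followed at 0.11 to 0.12. With 6 tumors and 19938 genes, close patterns arise easily, and the distances are a description only.

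**Figure D5:**
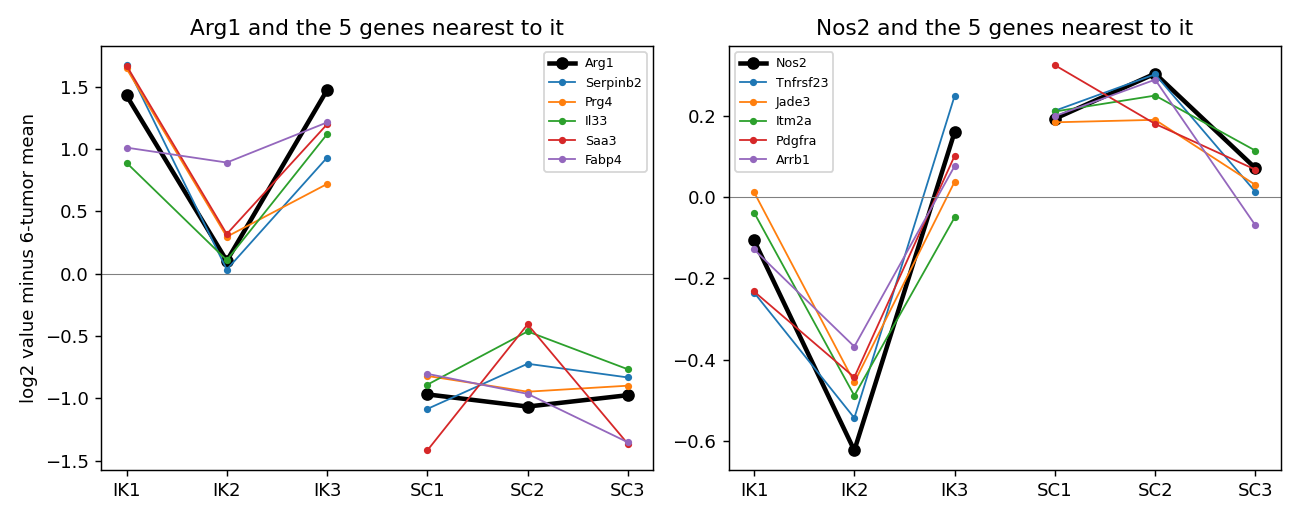
Log2 value minus each gene's own mean over the 6 tumors (vertical axes, with different scales in the panels) for Arg1 (left) and Nos2 (right), in black, and the 5 genes with the smallest root mean square difference to each, in colour. Lines join tumors of one group only to let a gene be followed. In the Arg1 panel every gene is lower in IK2 than in IK1 and IK3, and the subcutaneous values lie below all intrakidney values. The genes were chosen for nearness to these patterns, so the likeness follows largely from the choice.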

How the data were processed

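The authors deposited log2 intensities, 1 per transcript cluster and array. RMA and affy are named in the submitters' processing notes. Settings, tool versions and build are not given in the sources used here, nor whether the 6 arrays were normalized together. That the scale is log2 was read from the range, 2.31 to 15.07, and array medians were 7.08 to 7.11. Of 35512 clusters, 21789 were paired with exactly 1 gene, 1621 with several and 12102 were not named here. Gene names came from the platform annotation, and 21698 clusters matched a GRCm38.p6 gene table by Entrez identifier, used only for names.

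The group difference was fitted with lmFit and eBayes of limma 3.58.1 under R 4.3.3 (two-sided, Benjamini-Hochberg over all 19938 genes, threshold 0.05). The fit was tried on simulated data with the same spread in both groups. Such data say nothing of unequal spread like that of Arg1. The number of arrays limits precision. No batch is named in the labels. The genes and lists were chosen with earlier results of these data known. The other lists held 160 memberships, of which 147 were measured. Named were the 9 measured genes, up to 4 genes per list by adjusted p and any past the threshold, Ifng, Il4, Il13, Il10 and Tgfb1, and the 5 genes nearest to Arg1 and to Nos2. Gch1, Ccl22, Pdcd1lg2, Vwf, Cldn5, Esam and Pecam1 were chosen after their values were seen. Keratinocyte and skeletal muscle markers had median differences of -0.03 and -0.10, with 0 past the threshold. Other settings were quantile normalization, median centring, a filter on dim genes, an offset, every cluster, averaged clusters, a trend with robust prior, array weights, the replicate block, a stricter threshold and leaving out arrays.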

Additional observations from a re-analysis of the deposited data

How the results depend on the processing

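No member of the arginine set passed the threshold with the deposited values, and 1 to 3 did under some settings. Leaving out dim genes gave 1 member (Arg1), 1 gene of the wider pathway (Srm) and 101 genes over all. An intensity trend with a robust prior gave 1 member (Oat), 1 pathway gene (Srm) and 138 genes over all, against 46 as reported. Array weights put intrakidney tumor 3 at 2.57 against 0.351 and 0.679 for intrakidney tumors 1 and 2. They put subcutaneous tumor 2 at 3.55 against 0.756 and 0.609 for subcutaneous tumors 1 and 3, so that 1 array dominates each group. These weights gave 3 members (Arg1, Odc1 and Oat), 3 pathway genes (Srm, Gucy1b1 and Slc25a2) and 624 genes. An offset of 16 gave 74 genes, a threshold of 0.01 gave 5 and testing every cluster gave 0 (2206 at an unadjusted p of 0.05), each with 0 members. Without intrakidney tumors 2 and 3, chosen after seeing the data, 1 member (Arg1) passed, 30 genes passed over all, and 8 members had no overlap, but the 1 intrakidney array left is assumed to vary like the subcutaneous ones, among which Arg1 varied far less. Leaving out single arrays gave 2 to 33 genes over all: 2, 3 and 4 without subcutaneous tumors 1, 2 and 3, 21 without intrakidney tumor 1, 31 without intrakidney tumor 2 and 33 without intrakidney tumor 3. It gave 0 to 1 members past the threshold, the 1 being Arg1 without intrakidney tumor 2, and 4 to 6 members with no overlap. Groups of fewer arrays fail to overlap more easily, and the share over all genes was not counted for these settings. The counts of 4 to 6 therefore cannot be set beside the 14.9% of all genes found with 6 arrays. The cause of the changes between settings was not tested.

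Over 16 settings Arg1 kept its sign, with differences of 1.77 to 2.46 and limma adjusted p of 0.000390 to 0.432, and passed in 4. Among these 4 is the fit with 1 intrakidney array, which cannot gauge the spread among such tumors. Arg2, Nos2, Nos3, Slc7a1, Slc7a2, Odc1 and Oat also kept their signs in all 16. Asl turned positive after median centring (0.0067) and without intrakidney tumors 2 and 3 (0.042), and lay between -0.027 and 0.014 with single arrays left out. The tumors share replicate numbers but come from different mice, so the numbers were not taken as pairs. The correlation of deviations was 0.37, -0.16 and 0.10 for equal numbers and ranged from -0.44 to 0.43 for unequal numbers. The cause of these correlations was not tested. With the replicate block, 0 genes passed over all (1825 at an unadjusted p of 0.05), and 0 members and 0 pathway genes.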
